A study of Rattus norvegicus with 16 samples.

Results

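CXC and CX3C chemokines are small secreted or membrane-tethered proteins that attract leukocytes, and 9 of them were followed here across rat pituitary cell cultures given different ligands: Cxcl1, Cxcl2, Cxcl6, Cx3cl1, Cxcl9, Cxcl10, Cxcl11, Cxcl12 and Cxcl16. Genes were taken by symbol in the array annotation, using the brightest probe set that carried only that symbol. Of the 9 listed genes 8 were measured, each by 1 probe set, out of 14557 genes in all; Cxcl12 had no such probe set in the annotation used here and was not analysed here. The labels call the cells isolated corticotropes; they came from pituitaries of Wistar rats aged 21 days and were caught on beads with an antibody to the CRH receptor CRHR1 per the protocol labels, while the design text names an antibody to CRH. All groups shared culture in serum-containing DMEM/F12 medium with FGF. The 4 groups held 4 arrays each: control, CRH, IL-6 and extracellular nicotinamide phosphoribosyltransferase (eNampt), the ligand groups being sampled at 24 h; the control titles state no time. No label read here states the ligand doses, or whether a group's 4 arrays were separate cultures. The p-values therefore rest on the spread between these arrays alone, and that spread may be technical.

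Chemokines of this family fall into types by what switches on their genes. Cxcl1, Cxcl2 and Cxcl6 attract neutrophils through the receptor Cxcr2 and are classical targets of NF-kB, the transcription factor activated by IL-1, TNF and Toll-like receptor signals. Cx3cl1 (fractalkine), a membrane-tethered ligand of Cx3cr1, is also induced through NF-kB. Cxcl9, Cxcl10 and Cxcl11 are ligands of Cxcr3 on T cells and are induced by interferons. Cxcl16, a membrane-tethered ligand of Cxcr6, is induced by both kinds of signal. CRH drives corticotropes through cAMP, IL-6 acts through JAK and STAT3, and eNampt is an extracellular form of an enzyme of NAD synthesis.

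The promoters are shown because the NF-kB and interferon types are defined by the factors that bind there. The 250 bases before the annotated start, from RefSeq on build GRCr8, were matched by symbol for all 8 measured members and read on the gene's own strand. They were searched on both strands for the NF-kB consensus, for the interferon-stimulated response element core GAAANNGAAA, for the gamma-activated site TTCNNNGAA and for the TATA box TATAAA. Capitals mark matches to the NF-kB consensus, to the GAAANNGAAA core and to TATAAA. The 5 promoters that hold the NF-kB consensus are these.

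Cxcl1, chr14:17479322-17479571 (-): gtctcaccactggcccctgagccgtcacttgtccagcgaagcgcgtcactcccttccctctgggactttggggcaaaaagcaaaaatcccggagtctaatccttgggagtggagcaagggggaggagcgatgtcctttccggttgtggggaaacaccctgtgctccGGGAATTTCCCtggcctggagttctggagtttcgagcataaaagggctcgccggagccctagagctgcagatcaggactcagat
Cxcl2, chr14:17467256-17467505 (-): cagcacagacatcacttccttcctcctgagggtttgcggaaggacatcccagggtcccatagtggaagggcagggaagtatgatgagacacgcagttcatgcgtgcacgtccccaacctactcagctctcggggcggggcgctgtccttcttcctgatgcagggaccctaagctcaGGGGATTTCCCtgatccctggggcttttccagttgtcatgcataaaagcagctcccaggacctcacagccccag
Cxcl6, chr14:17596418-17596667 (-): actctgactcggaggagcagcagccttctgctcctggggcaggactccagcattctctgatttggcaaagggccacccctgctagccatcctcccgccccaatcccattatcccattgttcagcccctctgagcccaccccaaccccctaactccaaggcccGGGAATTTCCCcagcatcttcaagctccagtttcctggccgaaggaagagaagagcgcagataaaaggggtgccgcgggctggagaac
Cxcl10, chr14:15988816-15989065 (+): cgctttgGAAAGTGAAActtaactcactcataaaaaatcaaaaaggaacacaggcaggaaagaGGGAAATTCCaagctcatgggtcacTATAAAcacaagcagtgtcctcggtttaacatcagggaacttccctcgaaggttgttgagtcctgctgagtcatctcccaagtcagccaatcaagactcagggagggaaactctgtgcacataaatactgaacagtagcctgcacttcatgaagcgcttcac
Cxcl11, chr14:15973478-15973727 (+): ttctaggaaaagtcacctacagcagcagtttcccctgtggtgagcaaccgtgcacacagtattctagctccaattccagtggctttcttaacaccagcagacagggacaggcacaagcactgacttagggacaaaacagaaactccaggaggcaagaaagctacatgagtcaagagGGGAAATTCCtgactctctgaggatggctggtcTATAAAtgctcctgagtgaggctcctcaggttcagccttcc

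In Cxcl1 the match was GGGAATTTCC at -84 to -75 from the start, and Cxcl6 held the same letters at -88 to -79. In Cxcl2 the match was GGGGATTTCC at -74 to -65, with a second match shifted by 1 base. Both interferon-type genes in the list above also held a match: GGGAAATTCC at -187 to -178 in Cxcl10 and the same letters at -74 to -65 in Cxcl11. The matches in Cxcl1, Cxcl2 and Cxcl6 overlap further matches on the other strand. Of all 33469 RefSeq promoters of this length, 3.54% held the NF-kB consensus, against 5 of the 8 members. The members were chosen with their inducing signals known, and these 5 lie in runs of neighbouring genes, so the shares make no test. Cxcl9 and Cxcl16 had no match in this window. For Cx3cl1 the window belongs to a start inside the gene's annotated span, so the bases before its outermost start were not searched; the window that was searched held no match. For the other 7 measured members the window lies directly next to the annotated gene. The looser pattern GGGNNNNNCC, of which the consensus is a special case, was found in 6 members and in 42.3% of all promoters.

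The GAAANNGAAA core was found in Cxcl10 alone among the members, as GAAAGTGAAA at -243 to -234, and in 3.41% of all promoters. TTCNNNGAA was found in Cxcl11 alone, at -250 to -242, and in 7.67% of all promoters. TATAAA was found in Cx3cl1, Cxcl10 and Cxcl11 and in 12.9% of all promoters. A match describes these letters only. On chromosome 14 of the same annotation Cxcl11, Cxcl10 and Cxcl9 are adjacent protein-coding genes, and Cxcl2, Cxcl1 and Cxcl6 lie in another run that also holds Cxcl3, Pf4 and Ppbp.

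**Figure D1:**
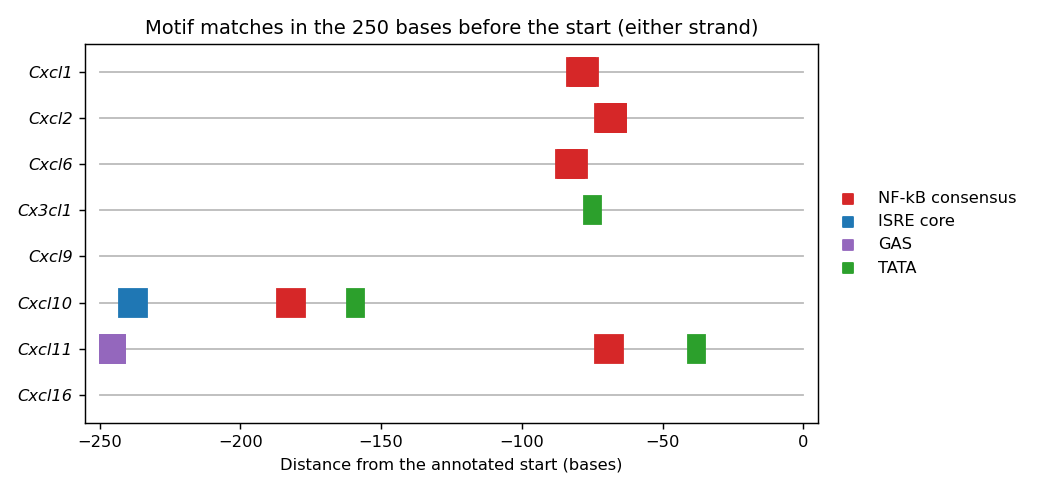
Positions of motif matches in the 250 bases before an annotated start of the 8 measured chemokine genes, for Cx3cl1 a start inside the gene span (horizontal axis, distance from the start in bases; 1 line per gene; coloured boxes, matches on either strand). Cxcl1, Cxcl2 and Cxcl6 each hold the NF-kB consensus between -88 and -64, Cxcl10 and Cxcl11 hold it too, and Cxcl9 and Cxcl16 hold none of the motifs drawn.

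Levels are deposited RMA values on a log2 scale, so a difference of 1 is a doubling of signal. Control arrays 3 and 4 stood apart, with 90th percentiles of 4.58 and 4.43 against 5.07 to 5.51 on the other 14 arrays, and values without them are given beside many of the differences from control. As a yardstick for background, 243 olfactory, vomeronasal and taste receptor genes were used. Their group means had a 95th percentile of 2.17 in control, 2.18 with CRH, 2.01 with IL-6 and 2.00 with eNampt, and a member below it is called near background. Pomc was bright in every group (means from 7.73 to 8.45), but the corticotrope transcription factor gene Tbx19 (1.44 to 1.61) and Neurod1 (1.29 to 1.41) lay near background. Prl, the prolactin gene of lactotropes, had group means from 10.64 to 10.95. Among other hormone genes Cga had means from 7.21 to 7.98, Gh1 from 5.12 to 5.82 and Lhb from 2.37 to 2.82, while Tshb and Gnrhr lay near background. The collagen gene Col1a1 had means from 6.59 to 7.02. The label thus fits the Pomc level, while Tbx19 and Neurod1 were not above background and transcripts of other cell types were bright. In bulk cells, fewer cells of a type and less RNA per cell cannot be told apart.

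Cxcl1, the main neutrophil attractant of the NF-kB type, was high after eNampt on every array. Its log2 levels were 4.04, 5.91, 3.17 and 3.08 on control arrays 1 to 4, and 5.90, 6.39, 5.27 and 5.57 on eNampt arrays 1 to 4. Control array 2 lay within the eNampt range, and the other 3 control arrays lay below all eNampt arrays. After CRH the levels were 5.31, 3.17, 3.71 and 4.44, and after IL-6 they were 3.83, 3.70, 3.11 and 4.04. The order of the means was eNampt 5.78 ± 0.48 (SD, n = 4), CRH 4.16 ± 0.93, control 4.05 ± 1.31 and IL-6 3.67 ± 0.40, of which the last 3 differed by less than the SD of the control arrays.

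Against control, Cxcl1 was 3.32-fold higher after eNampt (log2 difference 1.73 ± 0.57 SE, 95% interval 0.52 to 2.95). The difference did not pass in limma over all genes (adjusted p = 0.490) and its exact permutation p, two-sided, was 0.114; with 4 against 4 arrays this p cannot go below 0.0286. Its size moved with the control arrays. The difference was 0.81 without control arrays 3 and 4 and 2.35 without control array 2. Cxcl1 differed from control by 0.11 ± 0.57 after CRH and by -0.38 ± 0.57 after IL-6, where the sign depended on the arrays kept: without control arrays 3 and 4 the CRH difference was -0.81 and the IL-6 difference -1.30, and without control array 2 the IL-6 difference was 0.24.

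Against IL-6, a comparison that uses no control array, all 4 eNampt arrays lay above all 4 IL-6 arrays for Cxcl1, a log2 difference of 2.11 ± 0.57 SE (95% interval 0.90 to 3.32). Against CRH the difference was 1.62 ± 0.57 (0.41 to 2.84), and CRH array 1 lay above eNampt array 3. The exact permutation p was 0.0286 against IL-6, the smallest possible and reached in 5 of the 48 member tests, and 0.0571 against CRH, and neither passed in limma over all genes (adjusted p = 0.999998 and 0.943). With only the 8 arrays compared in the fit, the limma adjusted p was 0.266 against IL-6 and 0.915 against CRH.

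Cxcl6, which attracts neutrophils as Cxcl1 does, was near background in 3 of the 4 groups and above it after eNampt. The log2 levels were 1.73, 2.23, 1.65 and 1.40 on control arrays 1 to 4, and 2.77, 3.18, 2.10 and 3.03 on eNampt arrays 1 to 4. Only eNampt array 3 fell below control array 2, and the other eNampt arrays lay above every control array. The CRH arrays lay between 1.92 and 2.05 and the IL-6 arrays between 1.37 and 1.71. Against control Cxcl6 was 2.02-fold higher after eNampt (log2 difference 1.02 ± 0.22 SE, 95% interval 0.55 to 1.49, limma adjusted p = 0.206, exact permutation p = 0.0571). Since the control level lies near background, the fold is uncertain in size.

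Of the 48 member differences tested in limma, the one with the smallest adjusted p was that of Cxcl6 between eNampt and IL-6, 1.21 ± 0.22 SE (95% interval 0.75 to 1.68), with adjusted p = 0.148. The eNampt arrays did not overlap the IL-6 arrays or the CRH arrays for Cxcl6. Against CRH its difference was 0.79 ± 0.22 (limma adjusted p = 0.804). Without eNampt array 3 the difference passed against IL-6 (1.44, limma adjusted p = 0.0176) and against control (1.24, adjusted p = 0.0425), and with array quality weights it passed against IL-6 (1.21, adjusted p = 0.0454). The difference of eNampt from control was 0.79 without control arrays 3 and 4. Cxcl6 differed from control by 0.23 after CRH and -0.20 after IL-6, and without those arrays by 0.0045 and -0.42. CRH and IL-6 arrays also did not overlap for Cxcl6 (0.43 ± 0.22, limma adjusted p = 0.9997), with both groups near background.

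Cxcl2, the third neutrophil attractant, was uneven among the eNampt arrays. Its log2 levels there were 4.10, 1.96, 2.98 and 1.73, against 2.76, 1.93, 1.90 and 2.17 in control. Arrays 1 and 3 lay above every control array, while arrays 2 and 4 lay within or below the control range. The CRH arrays lay between 1.69 and 2.41 and the IL-6 arrays between 1.50 and 2.37. The means with CRH (2.15) and IL-6 (1.88) were near background, and the control mean (2.19) lay just above the limit of 2.17. The difference of eNampt from control was 0.50 ± 0.42 SE (95% interval -0.39 to 1.40, limma adjusted p = 0.797). It was 0.35 without control arrays 3 and 4 and 0.04 without eNampt array 1. Against IL-6 it was 0.81 (95% interval -0.08 to 1.70) with all arrays and 0.34 without eNampt array 1, and against CRH it was 0.54 with all arrays and 0.07 without eNampt array 1. A rise of Cxcl2 was not detectable at this spread, and the interval also holds a difference as large as that of Cxcl6. Probe sequences were not used here, so whether the related transcripts of Cxcl1, Cxcl2 and Cxcl6 share hybridisation was not tested.

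Cx3cl1 was high on 3 of the 4 eNampt arrays. The log2 levels were 3.09, 3.99, 4.26 and 2.15 after eNampt and 2.36, 2.61, 2.23 and 2.07 in control. Arrays 1, 2 and 3 after eNampt lay above all control arrays, and array 4 lay within the control range. The CRH arrays lay between 2.12 and 2.89 and the IL-6 arrays between 2.11 and 3.13, so the order of the means was eNampt 3.37 ± 0.96 (SD, n = 4), IL-6 2.60 ± 0.44, CRH 2.47 ± 0.33 and control 2.32 ± 0.23. The control mean lay just above the background limit of 2.17, so a fold against it is uncertain in size. Against control the difference after eNampt was 1.05 ± 0.38 SE, or 2.07-fold (95% interval 0.24 to 1.86, limma adjusted p = 0.548, exact permutation p = 0.114). It was 0.88 without control arrays 3 and 4, 1.46 without eNampt array 4 and 0.75 without eNampt array 3. Against CRH the eNampt difference of Cx3cl1 was 0.91 (95% interval 0.10 to 1.71), and against IL-6 it was 0.78 (-0.03 to 1.58) with all arrays and 0.48 without eNampt array 3.

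The interferon-type chemokines Cxcl9, Cxcl10 and Cxcl11 lay near background in all 4 groups. Cxcl10 had the highest values: 1.68, 2.35, 1.58 and 2.07 on control arrays 1 to 4 and 1.72, 1.95, 2.05 and 1.54 on eNampt arrays 1 to 4. The groups overlapped fully, and IL-6 array 3 (2.41) was the highest of all 16. After eNampt the difference of Cxcl10 from control was -0.11 ± 0.23 SE, with a 95% interval from -0.60 to 0.39. For Cxcl9 it was -0.07 ± 0.17 (-0.44 to 0.29) on levels from 0.90 to 1.77, and for Cxcl11 -0.09 ± 0.12 (-0.33 to 0.16) on levels from 1.06 to 1.46 over all 16 arrays. Without control arrays 3 and 4 the eNampt differences were -0.20 for Cxcl10, -0.04 for Cxcl9 and -0.17 for Cxcl11. The limma adjusted p were 0.936, 0.942 and 0.885.

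After CRH the differences of the 3 interferon-type genes from control ranged from -0.03 to 0.09 and after IL-6 from -0.13 to 0.04. The signs turned for 1 or more of them in each of these comparisons when single arrays were left out. Cxcl11 was lower on every eNampt array than on every CRH array (difference -0.18 ± 0.12, limma adjusted p = 0.943), both groups being near background. At such low signal these values do not tell whether the genes responded.

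Cxcl16, like Cxcl1, had signal far above background in every group. Its log2 levels were 6.48, 8.09, 5.82 and 5.91 in control, 7.62, 6.92, 7.83 and 7.99 after CRH, 7.43, 7.08, 6.80 and 6.87 after IL-6 and 8.09, 7.69, 7.64 and 7.34 after eNampt. Control arrays 1, 3 and 4 lay below all ligand arrays, and control array 2 lay at the top of the range. The order of the means was eNampt 7.69 ± 0.31 (SD, n = 4), CRH 7.59 ± 0.47, IL-6 7.05 ± 0.28 and control 6.57 ± 1.05, and the first pair differed by 0.10 ± 0.41 SE (95% interval -0.77 to 0.97). Cxcl16 lay above control by 1.01 ± 0.41 after CRH, 1.11 ± 0.41 after eNampt and 0.47 ± 0.41 after IL-6, and none of these passed (limma adjusted p = 0.765, 0.557 and 0.895).

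The Cxcl16 differences moved with control arrays 3 and 4, the arrays of low upper percentile. Without them the differences from control were 0.30 with CRH, -0.24 with IL-6 and 0.40 with eNampt, and after repeated quantile normalization they were 0.46, -0.01 and 0.57. Without control array 2 they were larger, and eNampt against control then passed (1.62, limma adjusted p = 0.0445). The part of these arrays in the differences was not tested further.

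**Figure D2:**
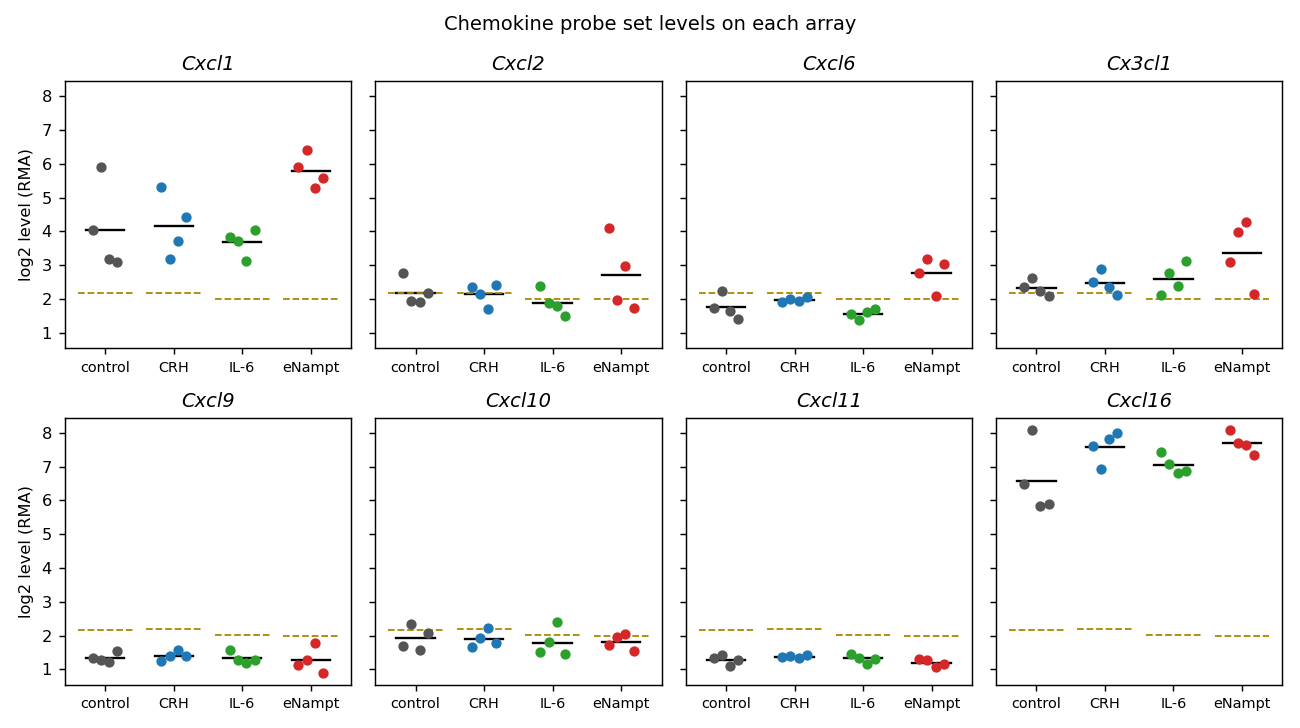
Log2 RMA level (vertical axis) of the 8 measured chemokine genes on each of 4 arrays per group, in replicate order within a group; black bars are group means and dashed lines the 95th percentile of 243 sensory receptor genes in that group. Cxcl1 and Cxcl6 are higher after eNampt than after IL-6 on every array, Cxcl2 and Cx3cl1 are uneven after eNampt, and Cxcl9 and Cxcl11 stay below the dashed line throughout.

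The types were set side by side within each ligand. After eNampt all 4 NF-kB-type genes were higher than in control with a median log2 difference of 1.03, while 0 of the 3 interferon-type genes were higher and their median was -0.09. The median over all 14557 genes was 0.06, and 58.3% of them were higher. After CRH the medians were 0.13 and 0.06, against 0.10 for all genes, and after IL-6 they were -0.25 and -0.02, against 0.09 for all genes. Without control arrays 3 and 4 the medians of the NF-kB and interferon types were 0.80 and -0.17 for eNampt, -0.11 and 0.01 for CRH and -0.44 and -0.05 for IL-6, and the all-gene medians were -0.03, 0.02 and -0.01. The sign of the NF-kB-type median for CRH thus depended on those control arrays. These medians are descriptions of chosen genes, and no test was made of them or of the difference between the types. The 3 interferon-type genes lay near background in every group, so their values do not tell whether they responded.

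The same order appeared without the control arrays. Against CRH all 4 NF-kB-type genes were higher after eNampt (median 0.85) and 0 of 3 interferon-type genes (median -0.14), and against IL-6 the counts were 4 of 4 (median 1.01) and 1 of 3 (median -0.06). The all-gene medians in these comparisons were -0.05 and -0.01, and 42.9% and 47.5% of all genes were higher. The interferon-type genes lay near background in these groups too. The comparisons of eNampt with control, CRH and IL-6 share the eNampt arrays. Array means of the NF-kB-type genes were 3.96, 3.88, 3.65 and 3.12 after eNampt, against 2.72, 3.17, 2.24 and 2.18 in control, 2.43 to 3.02 after CRH and 2.22 to 2.59 after IL-6. The one crossing was eNampt array 4 below control array 2.

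**Figure D3:**
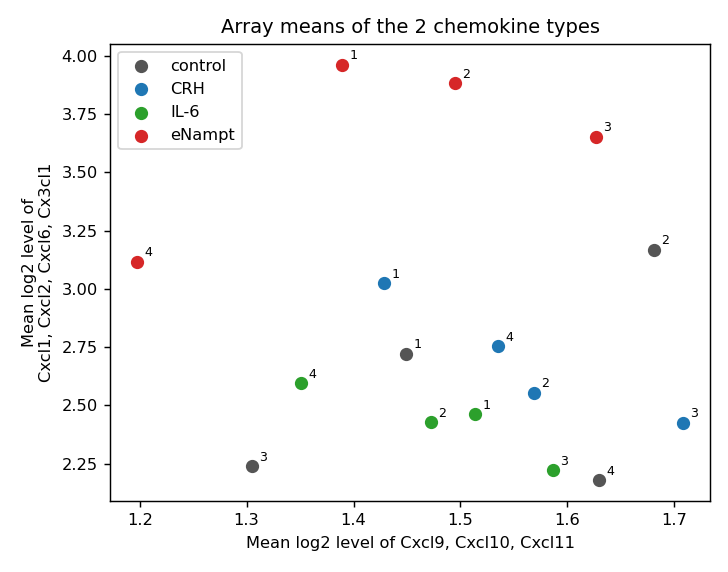
Mean log2 level of the 4 NF-kB-type genes (vertical axis) against that of the 3 interferon-type genes (horizontal axis) on each of 16 arrays, coloured by group and numbered by replicate. The eNampt arrays lie at 3.12 to 3.96 on the vertical axis and at 1.20 to 1.63 on the horizontal axis, where the other groups lie at 1.31 to 1.71.

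Counted over members, 0 of the 8 passed at adjusted p under 0.05 between eNampt and control in limma, where 0.0137% of all genes did. At an unadjusted p under 0.05, 4 of the 8 were higher (Cxcl1, Cxcl6, Cx3cl1 and Cxcl16), against 6.17% of all genes, and 0 were lower, against 1.38%. When control arrays 3 and 4 were left out, only Cxcl6 was higher at that level, 1 of 8 against 2.25% of all genes. The eNampt and control arrays did not overlap for 0 members in either direction, against 2.81% of all genes higher and 1.33% lower. Between eNampt and CRH 0 of 8 passed (0.0137% of all genes) and 3 were higher at an unadjusted p under 0.05 (2.56%), namely Cxcl1, Cxcl6 and Cx3cl1. Without overlap of these groups 1 member was higher (Cxcl6, against 1.22% of all genes) and 1 lower (Cxcl11, against 1.74%). Between eNampt and IL-6 0 of 8 passed (0.0137%) and 2 were higher at that level (1.74%), Cxcl1 and Cxcl6, whose arrays also did not overlap (1.28% of all genes higher, with 0 members lower against 1.53%).

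After CRH 0 of 8 passed against control (0% of all genes) and 1, Cxcl16, was higher at an unadjusted p under 0.05 (5.56%); without control arrays 3 and 4 there were 0 (1.77%). For 0 members did the CRH and control arrays not overlap (2.05% of all genes higher, 0.453% lower). After IL-6 0 of 8 passed against control (0.00687%), with 0 higher (4.42%) and 0 lower (1.11%) at an unadjusted p under 0.05, and 0 without overlap (2.41% of all genes higher, 0.756% lower). Without control arrays 3 and 4, 1 member, Cxcl1, was lower at an unadjusted p under 0.05 after IL-6 (3.45%). Between CRH and IL-6 0 of 8 passed (0% of all genes) and 0 were higher (2.16%) or lower (1.81%) at an unadjusted p under 0.05. Without overlap 1 was higher, Cxcl6 (1.33% of all genes), and 0 were lower (0.989%). A moderated F test over the 3 ligands in limma gave its smallest adjusted p among the members for Cxcl6 (0.239).

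**Figure D4:**
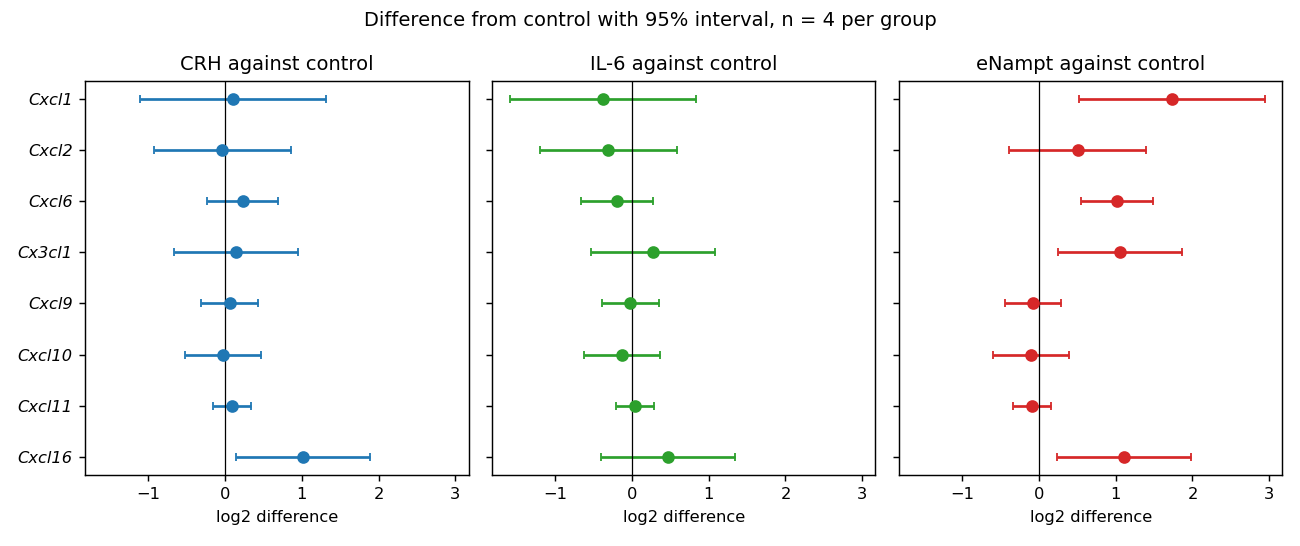
Log2 difference of each ligand group from control (horizontal axis) for the 8 measured chemokine genes, with 95% intervals from limma (n = 4 arrays per group). After eNampt the intervals of Cxcl1, Cxcl6, Cx3cl1 and Cxcl16 lie above 0 and those of Cxcl9, Cxcl10 and Cxcl11 hold 0; after CRH the interval of Cxcl16 lies above 0; after IL-6 all hold 0.

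Receptors of these chemokines were mostly near background. Of 12 listed receptors and partner genes 9 were measured, and 0 passed against control after CRH, IL-6 or eNampt in limma. Cxcr2, the receptor of the neutrophil attractants, had group means from 1.45 to 1.86 and a difference of -0.41 ± 0.16 SE after eNampt (adjusted p = 0.611). Cxcr3, the receptor of the interferon-type ligands, lay between 1.76 and 1.81, Cxcr6, the receptor of Cxcl16, between 1.31 and 1.54, Cxcr1 between 1.60 and 1.70 and Cxcr5 between 1.41 and 1.68, all near background. Cx3cr1, the receptor of Cx3cl1, lay just above it at 2.20 to 2.75. Cxcr4 (3.07 to 3.64) and Ackr3 (4.08 to 4.43), the receptors of Cxcl12, and Adam17 (2.42 to 3.16), a protease that sheds Cx3cl1, were above background in every group, with differences after eNampt of 0.37, 0.02 and 0.13. These were 0.43, -0.39 and -0.10 without control arrays 3 and 4.

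Of 6 other CXC ligand genes 4 were measured. Pf4, platelet factor 4, which lies in the same run of genes as Cxcl1, had a mean of 3.25 in control and means of 4.66 with CRH, 4.23 with IL-6 and 5.26 with eNampt, with a difference of eNampt from control of 2.01 ± 0.71 SE (limma adjusted p = 0.543). Its eNampt arrays ranged from 3.82 to 7.72, and without the highest, array 2, the difference was 1.19. Its neighbour Ppbp and Cxcl13 were near background in every group, with differences after eNampt of -0.14 and 0.01. Cxcl17 was near background in 3 groups and just above it after eNampt, at 2.03 (difference from control -0.05).

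Genes that carry the NF-kB signal were well represented on the arrays. Of 23 listed genes 18 were measured, all above background in at least 1 group. After eNampt 13 of the 18 were higher, where 58.3% of all genes were, with a median difference of 0.39 (0.06 for all genes). In limma 0 passed over all genes, and 5 were higher at an unadjusted p under 0.05, 6.17% of all genes being so. The 4 with the largest moderated t were Zc3h12a, an RNase that limits inflammatory mRNAs (1.02 ± 0.32 SE), Nfkbia, the inhibitor of NF-kB (1.22 ± 0.39), Tnip1, a partner of the deubiquitinase A20 (0.92 ± 0.34), and Rela, the p65 subunit of NF-kB (0.97 ± 0.37). Their adjusted p ranged from 0.462 to 0.580. Nfkbia differed by -0.11 after CRH and 0.33 after IL-6, whereas Rela differed by 0.37 and 0.93. Without control arrays 3 and 4 the Nfkbia differences were 0.57 with eNampt, -0.76 with CRH and -0.32 with IL-6, while that of Rela with eNampt was 0.96. Means over the whole list were 3.63, 3.64, 3.11 and 3.21 on control arrays 1 to 4. They were 3.84, 3.82, 3.91 and 3.61 on eNampt arrays 1 to 4, 3.20 to 3.74 after CRH and 3.12 to 3.77 after IL-6.

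Of 23 listed genes of interferon signalling and its targets 17 were measured, and 7 of them were near background in every group, including Ifng and Ifnb1, the genes of interferon gamma and beta, and the targets Mx1, Isg15, Rsad2, Ifit3 and Usp18. The target Ifit2 was above background in every group, with means of 4.88 in control, 4.90 with CRH, 5.16 with IL-6 and 4.27 with eNampt. So were Irf7 (group means 3.11 to 3.62) and Stat2 (3.08 to 3.70). After eNampt 10 of 17 were higher, where 58.3% of all genes were, with a median of 0.14 (0.06 for all genes). None passed (0 of 17), and 2 were higher at an unadjusted p under 0.05, against 6.17% of all genes. The 4 with the largest moderated t were Irf9, part of the complex that binds the interferon-stimulated response element (1.45 ± 0.49 SE), Ifngr1 (1.13 ± 0.39) and Ifnar1 (1.12 ± 0.80), both interferon receptor subunits, and Rsad2, an antiviral target (-0.31 ± 0.27), with adjusted p from 0.511 to 0.803. Irf9 was also above control after CRH (1.34) and IL-6 (1.15). The difference of Ifngr1 was 0.70 and that of Irf9 1.83 without control arrays 3 and 4.

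Markers of other cells were read beside the chemokines. Of 9 measured leukocyte markers 5 were higher after eNampt, where 58.3% of all genes were. At an unadjusted p under 0.05 in limma 2 of the 9 were higher, against 6.17% of all genes. Array means of these markers were 2.36 to 2.67 after eNampt, against 2.07 to 2.94 in control. The defining markers Ptprc, Itgam, Aif1 and Cd3e were near background in every group. Cd14 was above background in every group (3.41 to 4.58), Cd68 only after eNampt (2.24, against 1.57 in control), Lyz2 in control and after IL-6, and Csf1r after IL-6. Cd74, the MHC class II invariant chain, was 1.97 ± 0.67 SE above control after eNampt (limma adjusted p = 0.516). All 7 measured fibroblast and mural markers were higher after eNampt, where 58.3% of all genes were. Array means of these markers were 4.60 to 5.70 after eNampt, against 3.61 to 4.91 in control, 4.44 to 5.03 after CRH and 4.06 to 4.97 after IL-6. Among them the matrix proteoglycan gene Dcn differed by 1.99 ± 0.78 (adjusted p = 0.611) and the collagen gene Col1a2 by 0.02, which was -0.47 without control arrays 3 and 4. Cd74, Dcn and Col1a2 were picked after their values were seen. All 4 endothelial markers were near background. Of 5 listed folliculostellate and stem cell markers 3 were measured, and 1 of the 3 was higher after eNampt, where 58.3% of all genes were. Sox2 (group means 2.97 to 3.66) and S100b (2.40 to 2.80) were above background in every group, and Aldh1a1 was near it. The part of the fibroblast, leukocyte and folliculostellate markers in the chemokine differences was not tested.

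The genes whose pattern over the 16 arrays was most like that of Cxcl1 were Lmnb1 (Pearson r = 0.90, Spearman rho = 0.83), Kpna2 (0.85 and 0.81), Ccl7 (0.84 and 0.74), Prxl2b (0.84 and 0.76) and Rfc3 (0.84 and 0.85). Without the 2 arrays farthest from the Cxcl1 median, eNampt array 2 and control array 2, r was 0.86, 0.84, 0.74, 0.76 and 0.79, and within groups it was 0.80, 0.79, 0.67, 0.86 and 0.80. For Cxcl10 the most alike were Epop (r = 0.87), Ifnb1 (0.81), Rims3 (0.78), Or52x1 (0.76) and Pate5 (0.76), with mean levels from 1.52 to 2.54. Without IL-6 array 3 and control array 2 these were 0.82, 0.61, 0.77, 0.69 and 0.57. These values describe arrays that share their normalization and have no p. Each list holds the highest r among all genes searched, so high values come with the choice. Cxcl10 and Ifnb1 were near background in every group, and Or52x1 is an olfactory receptor gene. Among the members, r over the 16 arrays was 0.82 for Cxcl1 with Cxcl6, 0.72 for Cxcl1 with Cxcl16 and 0.50 for Cxcl1 with Cx3cl1. It was 0.35 for Cxcl1 with Cxcl2, 0.23 for Cxcl6 with Cxcl2 and -0.04 for Cxcl1 with Cxcl10.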

How the data were processed

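Gene expression was measured on 16 Affymetrix arrays. The authors deposited log2 expression values per probe set, and the submitters' processing notes name RMA; its version and the genome build are not stated there. The table held 36685 probe sets: 14824 with 1 gene symbol, 829 with several and 21032 with none. Symbols were brought to current names through Entrez identifiers (14670 matched) and the brightest probe set per gene was used, giving 14557 genes. Groups came from sample titles.

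With limma 3.58.1 in R 4.3.3, all arrays were fitted with a mean for each group, with two-sided moderated tests and Benjamini-Hochberg adjustment over all genes; a gene was called at adjusted p under 0.05. The 48 member differences also had exact permutation tests. The fit was tested on simulated data. The number of arrays limits the precision. All 8 measured members were named, with up to 4 genes per list by the size of the moderated t after eNampt, Nfkbia, all receptors (predicted loci left out of the likeness lists), and the 5 genes most alike Cxcl1 and Cxcl10. A comparison of the chemokine proteins was planned, and proteins were not used here. The members, types and lists were chosen with earlier results of these data known. Alternatives were repeated quantile normalization, a filter at the median, an intensity trend with robust variances, array weights, only the arrays compared, a replicate block, other probe set rules, and leaving out arrays. The background genes were those with Olr, Vom1r, Vom2r or Tas2r symbols.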

Additional observations from a re-analysis of the deposited data

How the results depend on the processing

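Of 798 member differences recomputed under the alternatives, 755 kept their direction and their side of the threshold, 4 passed and 39 turned sign, most of them of genes near background. The differences of Cxcl1, Cxcl2, Cxcl6, Cx3cl1 and Cxcl16 between eNampt and control stayed above 0 in every alternative run. With the probe sets of newer olfactory receptor names added to the background genes (1279 genes, an alternative chosen after seeing the data), the limit was 2.35 in control and Cx3cl1 and Cxcl2 were near background there.

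Genes called in all, against 0 for CRH, 1 for IL-6 and 2 for eNampt (each against control) and 2 for eNampt against CRH and against IL-6, were 1, 1 and 4 after repeated quantile normalization (CRH, IL-6, eNampt). Among genes above the median of all probe set values there were 0 (IL-6), 5 (eNampt) and 4 (eNampt against IL-6). With an intensity trend there were 0 (IL-6) and 5 (eNampt against IL-6), with array weights 0 and 6, and with all probe sets 0 and 4. With only the 8 arrays compared there were 0 after IL-6, 0 after eNampt and 1 each for eNampt against CRH and IL-6. With the replicate number as a block (replicate block) there were 0 after IL-6 and 4 after eNampt, and no member was called. The main fit did not take the numbers to pair the arrays. Deviations from the group means correlated at 0.054 on average over 24 same-numbered pairs (-0.18 to 0.30). Over 72 other-numbered pairs the average was -0.018 (-0.25 to 0.28). Of 16 arrays 8 correlated best with their own number. These values do not settle whether the numbers pair the arrays. Without control arrays 3 and 4 there were 2 after CRH and 0 after eNampt. Leaving out 1 array gave 0 to 2 (CRH), 0 to 7 (IL-6), 2 to 14 (eNampt, 14 without control array 2), 0 to 5 (eNampt against CRH), 1 to 3 (eNampt against IL-6) and 0 to 1 (CRH against IL-6).

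Members called numbered 1 (Cxcl6, 1.21) for eNampt against IL-6 with array weights. Leaving out 1 array gave 0 to 1 for eNampt against control and for eNampt against IL-6: Cxcl6 without eNampt array 3 in both, and Cxcl16 without control array 2 in the first. The NF-kB-type median ranged from -0.31 to 0.10 after IL-6 and from -0.0075 to 0.32 after CRH, where it was -0.11 without control arrays 3 and 4.

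Signs turned against control under repeated quantile normalization for Cxcl1 after CRH (-0.043) and Cxcl16 after IL-6 (-0.013), and without control arrays 3 and 4 for Cxcl1 (-0.81) and Cx3cl1 (-0.022) after CRH and for Cxcl9 (0.016), Cxcl11 (-0.047) and Cxcl16 (-0.24) after IL-6. With array weights Cxcl10 turned for eNampt against IL-6 (-0.10) and CRH against IL-6 (-0.028). With 1 array left out the ranges after CRH were -0.27 to 0.73 (Cxcl1), -0.13 to 0.15 (Cxcl2) and -0.14 to 0.12 (Cxcl10). After IL-6 they were -0.70 to 0.24 (Cxcl1), -0.10 to 0.045 (Cxcl9), -0.33 to 0.015 (Cxcl10) and -0.017 to 0.092 (Cxcl11), and after eNampt -0.24 to 0.048 (Cxcl9) and -0.22 to 0.036 (Cxcl10). For eNampt against CRH they were -0.16 to 0.025 (Cxcl10) and -0.12 to 0.23 (Cxcl16), for eNampt against IL-6 -0.22 to 0.067 (Cxcl9) and -0.10 to 0.23 (Cxcl10), and for CRH against IL-6 -0.015 to 0.31 (Cxcl10) and -0.29 to 0.048 (Cx3cl1). Among list genes, in alternatives chosen after seeing the data, signs turned without control arrays 3 and 4 for Ackr3 (-0.39), Adam17 (-0.10) and Col1a2 (-0.47) after eNampt and Nfkbia after IL-6 (-0.32). With 1 array left out the eNampt ranges were -0.16 to 0.32 (Ackr3), -0.18 to 0.57 (Adam17), -0.043 to 0.056 (Cxcl13), -0.16 to 0.025 (Cxcl17) and -0.34 to 0.25 (Col1a2), and those of Nfkbia were -0.56 to 0.18 with CRH and -0.11 to 0.63 with IL-6. Members higher at an unadjusted p without control arrays 3 and 4 numbered 0 for CRH and 1 for eNampt, and 1 was lower for IL-6. The cause of these turns was not tested. Cxcl9, Cxcl10 and Cxcl11 lie below the median of all probe set values and have no value among the genes above it. Depth in the sense of reads does not apply; signal near background limits these genes, Cxcl6 and Cxcl2.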
